A study of Arabidopsis thaliana with 41 samples.

Results

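The data concern the *glk* double mutant of Arabidopsis, in which the transcription factor genes *GLK1* and *GLK2* both carry transposon insertions (*glk1-1 glk2-1*, in the Col-0 background), compared with wild-type (WT) Col-0 plants by RNA-seq of rosette leaves. All genes measured in both genotypes were compared. A gene was taken as downregulated or upregulated in *glk* when its change was at least 1.5-fold with a Benjamini-Hochberg adjusted p (FDR, false discovery rate) under 0.01 from edgeR's quasi-likelihood test, and when the mean of the 3 *glk* libraries lay on the same side of WT replicate 4 taken alone. Of 20733 genes tested, 2355 met this rule. The plants were grown in long days to about the 10-leaf stage, and each replicate was RNA pooled from leaves 5 and 6 of several plants, sampled in the light. The 4 WT libraries carry 2 kinds of labels. Replicates 5, 7 and 8 belong to the first set, and replicate 4 belongs to the second set, which also holds the 3 *glk* libraries and 3 libraries each of *Ateaf1-1* and *Atepl1-2*. These carry mutations of the AtEAF1 and AtEPL1 subunits of the histone acetyltransferase complex NuA4 in the same Col-0 background. They are a Cas9-made deletion in the former and a null allele in the latter. The *Ateaf1-1* and *Atepl1-2* libraries entered the fit to estimate the spread between replicates. They thereby also took part in the filter on low counts and in the scaling between libraries. With only the WT and *glk* libraries in the fit, 19264 genes were tested. What separates the 2 sets is not stated in the labels. A difference between *glk* and WT replicates 5, 7 and 8 therefore cannot be told apart from a difference between the sets. Replicate 4 is the only WT library with the labels of the *glk* libraries. It is a single library, so a difference from it alone cannot be told apart from traits of that library.

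GOLDEN2-LIKE (GLK) proteins are nuclear transcription factors of the GARP family that switch on genes needed to build chloroplasts. In leaves they are known for activating genes of the light-harvesting antenna and of chlorophyll synthesis, and the 2 Arabidopsis genes act largely redundantly, so that the double mutant is pale green where single mutants look nearly normal. The antenna proteins hold chlorophyll around photosystems I and II and pass light energy to them.

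The estimated counts of the 3 *glk* libraries summed to between 37662338 and 39339243 per library, and those of the first-set WT libraries to between 23881499 and 30781762, against 37499161 in WT replicate 4. Chloroplast genes took between 60.0% and 65.6% of the counts in WT and between 61.4% and 64.5% in *glk*. Antenna genes of green leaf cells were abundant in all 7 libraries and markers of the root were at or near 0, with a summed level of the 4 root markers of at most 0.0625 CPM (counts scaled to library size) in WT and at most 0.108 CPM in *glk*. WT replicate 4 stood apart from the other WT libraries. Its summed level of the 15 *LHCB* antenna genes was 40842 CPM against 64143 to 68591 CPM in the other 3, and its summed level of 15 circadian clock genes was 490.3 CPM against 279.7 to 299.4 CPM. Values against WT replicate 4 alone are therefore given beside the main results. Levels are in CPM after TMM normalization throughout, and single libraries are listed in the order WT 5, 7, 8 and 4, then *glk* 1, 2 and 3.

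The mutated genes were examined first. *GLK1* (AT2G20570, TAIR10.1 chromosome 2, 8855302 to 8857758) was at 71.5, 49.6, 53.9 and 63.9 CPM in WT and at 7.80, 8.22 and 8.86 CPM in *glk*. All 3 mutant libraries lay far below all WT libraries, and on the log2 scale the gene fell by 2.85 with a standard error of 0.21 (FDR 3.75e-06). *GLK2* (AT5G44190, chromosome 5, 17798262 to 17800926) was at 48.9, 34.2, 35.2 and 31.0 CPM in WT and at 30.9, 36.8 and 30.6 CPM in *glk*. These ranges overlapped, and the difference was within the spread between replicates (log2 fold change −0.19, standard error 0.24, FDR 0.610), with a positive sign against WT replicate 4 alone (0.08). A count per gene does not show where in the transcript the reads lie, so the *GLK2* level neither checks the insertion nor contradicts it.

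Downregulated genes outnumbered upregulated genes on the scale of the counts. In *glk*, 1488 genes were downregulated, 7.18% of the genes tested, and 867 were upregulated, 4.18%. Among the downregulated genes, 1447 (97.2%) had every *glk* library below all 4 WT libraries, and 864 of the upregulated genes (99.7%) had every *glk* library above them. Over all 20733 genes tested, 3558 had every *glk* library below and 3939 had every one above. The called genes were chosen by a test on these same libraries, so this separation is no further support for them. Of the upregulated genes, 129 had 3 counts or fewer in every WT library, and of the downregulated genes, 87 had 3 counts or fewer in every *glk* library, so that no fitted fold change is given for such genes. The requirement of the same direction against WT replicate 4 removed 56 genes from the downregulated group and none from the upregulated group. The numbers leaned on single libraries, since they were 2433 and 1741 without WT replicate 4, and without each *glk* library in turn they ranged from 722 to 852 and from 368 to 523. Without WT replicate 5, 7 or 8, the upregulated genes numbered 573, 494 and 565, respectively. When a gene was also required to pass both without WT replicate 4 and against WT replicate 4 alone, a rule chosen after seeing the data, 291 downregulated genes (1.41% of the 20622 genes testable in every fit) and 103 upregulated genes (0.499%) were left. They are called genes that passed against both kinds of WT library below. The predominance of downregulated genes did not hold on the TPM scale. It divides counts by transcript length and also differs from the counts in the scaling between libraries. Of the genes changed with counts, 63.2% were downregulated, but of those changed in the TPM values it was 28.4% in limma on log2(TPM + 1), 27.2% on log2(TPM + 0.1) and 29.8% on log2(TPM + 1) of genes with a mean TPM of at least 1. On these scales the median log2 fold change of all genes was 0.27, 0.49 and 0.36, against 0.02 for the counts. The TMM factors of the counts were 0.597 to 0.680 in the first-set WT libraries, 0.854 in WT replicate 4 and at least 0.9855 in *glk*. The TPM values summed to between 955462 and 964634 in the first-set WT libraries and to at least 999999 in *glk*. Whether length or scaling produced the shift was not tested.

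The antenna of photosystem II had the most negative median of the gene lists examined. Of 15 *LHCB* genes, 13 were downregulated and 1 was upregulated, and the median log2 fold change was −2.71, against 0.02 over all genes tested. Against WT replicate 4 alone the median was −1.97, and 7 members passed against both kinds of WT library. Fewer leaf cells with chloroplasts and less RNA per cell cannot be told apart in bulk tissue, here or below. *LHCB1.3* (AT1G29930), the *LHCB* gene with the highest mean TPM in WT (3276, against 783.1 in *glk*), was at 15838, 14847, 16101 and 11637 CPM in WT and at 2211, 2069 and 2413 CPM in *glk*. It fell 6.55-fold (FDR 6.34e-05). *LHCB1.2* (AT1G29910) was at 5928, 5427, 6341 and 3010 CPM in WT and 443.3, 359.1 and 491.0 CPM in *glk* and fell 12-fold (FDR 3.99e-05). *LHCB2.3* (AT3G27690), which encodes a subunit of the mobile outer antenna, differed widely between the 2 kinds of WT library. It was at 1570, 1357, 1498 and 251.6 CPM in WT and at 34.4, 33.3 and 31.6 CPM in *glk*. The log2 fold change, −5.14 with a standard error of 0.56 (FDR 5.01e-05), was −2.93 against WT replicate 4 alone. The inner antenna genes also fell, with *LHCB4.2* at −2.99, *LHCB6* at −2.72, *LHCB4.1* at −2.28 and *LHCB5* at −1.85 on the log2 scale. A pair of members behaved differently. *LHCB4.3*, a stress-responsive form of the inner antenna, was at 33.1, 35.5, 27.9 and 5.25 CPM in WT and 6.85, 8.84 and 10.8 CPM in *glk*, above WT replicate 4, and did not pass (FDR 0.0324). *LHCB7*, a rarely expressed member of the family, was at 8.37, 8.81, 7.04 and 6.15 CPM in WT and 12.5, 13.2 and 12 CPM in *glk*. It rose 1.65-fold (FDR 0.00782), but did not pass against both kinds of WT library. The *LHCB1* genes and the *LHCB2* genes are near-identical in sequence, and the split of reads among the members of each group is uncertain.

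**Figure D1:**
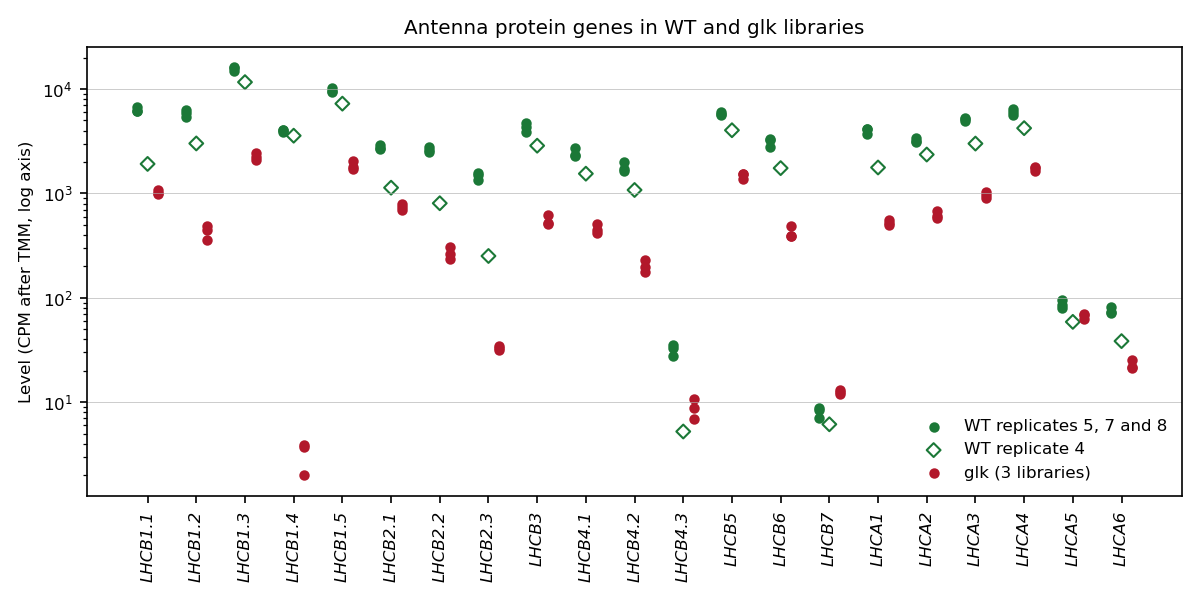
Levels of the 15 *LHCB* and 6 *LHCA* genes in CPM on a log axis. Filled green points are WT replicates 5, 7 and 8, open diamonds are WT replicate 4 and red points are the 3 *glk* libraries. All *glk* points lie below all WT points except for *LHCB4.3*, *LHCB7* and *LHCA5*, and *LHCB1.4* drops from 3572 CPM or more to 3.88 CPM or less.

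*LHCB1.4* (AT2G34430, chromosome 2, 14524607 to 14525918) stood out within the family. It was at 3867, 4006, 4086 and 3572 CPM in WT and at 3.88, 1.99 and 3.69 CPM in *glk*. Its log2 fold change was −10.25, with a standard error of 0.47 (FDR 8.67e-08), and its mean TPM was 869.9 in WT and 1.11 in *glk*. This was the largest fall among downregulated genes with at least 10 counts in every WT library, and it was nearly the same against WT replicate 4 alone (−10.13). The gene was far from absent in the other mutants of the study, which share the WT libraries as controls. It was at 886.4 to 1478 CPM in the *Ateaf1-1* libraries and 526.4 to 1125 CPM in the *Atepl1-2* libraries of the second set. Its divergently transcribed neighbour *LHCB1.5* (AT2G34420) fell by 2.29 on the log2 scale (FDR 2.38e-04). Of the 5 nearest tested genes on either side of *LHCB1.4*, *LHCB1.5* was the only one called lower. AT2G08665, which overlaps *LHCB1.5*, was at 0.978, 1.2, 0.926 and 25.3 CPM in WT and at 5.59, 3.91 and 7.24 CPM in *glk*, above the first-set WT libraries and below WT replicate 4, and did not pass (FDR 0.795). AT2G34450 rose 2.15-fold, from 1.28, 1.41, 1.48 and 1.34 CPM to 2.68, 3.15 and 3.08 CPM, and *CYP710A2*, a sterol desaturase gene, rose 2.79-fold.

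**Figure D2:**
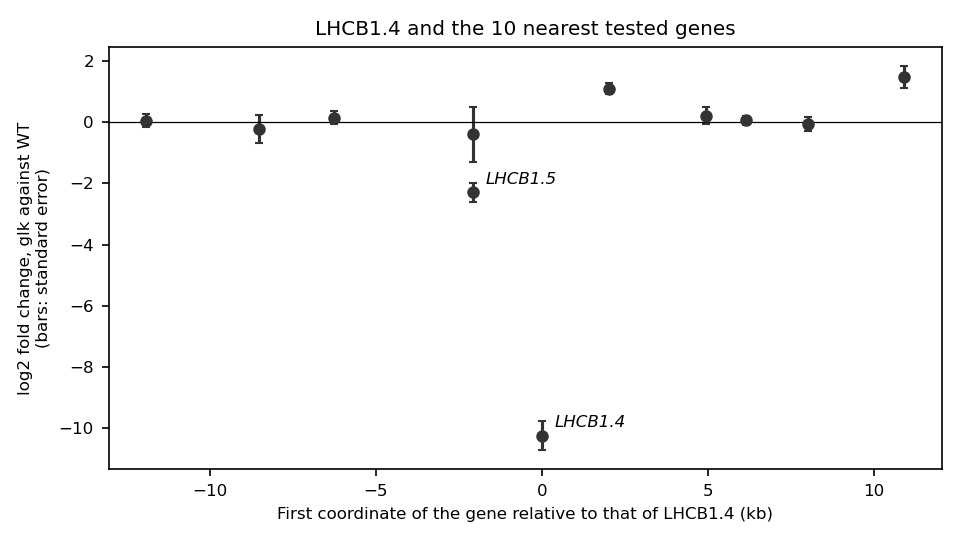
Log2 fold change in *glk* against WT of *LHCB1.4* and the 10 nearest tested genes, by the position of each gene's first coordinate relative to that of *LHCB1.4* in kb, with standard errors as bars. *LHCB1.4* at −10.25 and *LHCB1.5* at −2.29 lie below 0, and the other genes lie between −0.40 and 1.48.

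The promoters of 4 of these genes are shown because *LHCB1.4* and its neighbour *LHCB1.5* fell by such different amounts, and because *LHCB2.3* and *PSBQ2*, a photosystem II gene described below, were the most strongly lowered of their groups after *LHCB1.4*. Each runs from 250 bases before the annotated start of the gene to 50 bases after it, read 5′ to 3′ on the strand of the gene from the RefSeq TAIR10.1 genome. The windows are chr2:14524357-14524656 on the plus strand for *LHCB1.4*, chr2:14523519-14523818 on the minus strand for *LHCB1.5*, chr3:10255656-10255955 on the plus strand for *LHCB2.3* and chr4:2673194-2673493 on the minus strand for *PSBQ2*. Capitals mark matches on either strand to 4 short motifs. These are CCAATC, reported for GLK proteins, AGATTCT, a core of GARP family sites, the G-box CACGTG and the I-box core GATAAG, both common in light-regulated promoters.
LHCB1.4: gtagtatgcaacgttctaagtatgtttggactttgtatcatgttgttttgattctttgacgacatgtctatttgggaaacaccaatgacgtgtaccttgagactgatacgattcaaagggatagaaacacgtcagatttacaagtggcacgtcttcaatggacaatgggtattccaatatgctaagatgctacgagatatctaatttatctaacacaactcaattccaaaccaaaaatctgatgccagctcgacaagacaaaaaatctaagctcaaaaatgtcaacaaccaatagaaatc
LHCB1.5: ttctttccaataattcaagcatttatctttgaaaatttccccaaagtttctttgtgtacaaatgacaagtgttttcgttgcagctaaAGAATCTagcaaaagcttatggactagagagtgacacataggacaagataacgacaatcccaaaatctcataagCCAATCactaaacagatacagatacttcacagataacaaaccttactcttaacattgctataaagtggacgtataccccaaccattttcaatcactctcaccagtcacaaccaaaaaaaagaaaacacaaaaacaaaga
LHCB2.3: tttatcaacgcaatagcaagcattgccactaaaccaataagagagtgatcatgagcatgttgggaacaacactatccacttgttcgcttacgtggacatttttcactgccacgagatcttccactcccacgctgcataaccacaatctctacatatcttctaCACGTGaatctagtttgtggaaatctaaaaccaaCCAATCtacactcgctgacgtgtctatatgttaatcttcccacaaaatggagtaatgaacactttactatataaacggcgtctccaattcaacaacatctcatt
PSBQ2: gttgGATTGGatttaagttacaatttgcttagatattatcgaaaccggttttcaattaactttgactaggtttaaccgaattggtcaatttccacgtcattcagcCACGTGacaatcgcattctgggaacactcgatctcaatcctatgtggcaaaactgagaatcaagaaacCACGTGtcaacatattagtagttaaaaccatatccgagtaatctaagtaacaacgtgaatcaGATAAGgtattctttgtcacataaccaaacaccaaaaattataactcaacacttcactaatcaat

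The *LHCB1.4* window held none of the 4 motifs. That of *LHCB1.5* held 1 GLK motif and 1 GARP core, that of *LHCB2.3* 1 GLK motif and 1 G-box, and that of *PSBQ2* 1 GLK motif, 2 G-boxes and 1 I-box core. The GLK motif was present in 12.8% of the windows of all 19736 tested nuclear protein-coding genes and in 8 of 15 *LHCB* and 3 of 6 *LHCA* windows. It was present in 3 of 11 photosystem II core, 6 of 30 chlorophyll synthesis and 1 of 12 photosystem I core windows (8.33%). In the windows of the 57 downregulated genes of the antenna, photosystem and chlorophyll lists it was present in 33.3%, the GARP core in 19.3% (7.39% of all windows), the G-box in 28.1% (8.78%) and the I-box core in 40.4% (14.9%). Across all downregulated genes with a window, 1442 in number, the shares were 12.9%, 7.91%, 10.1% and 19.4%, and across the 843 upregulated genes they were 10.9%, 4.86%, 8.78% and 13.5%, respectively. These shares describe letters in short windows and do not show binding.

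Genes of photosystem I were downregulated in both its antenna and its core. Of the 6 *LHCA* antenna genes, 5 were downregulated (median log2 fold change −1.97, and −1.46 against WT replicate 4 alone). *LHCA1* (AT3G54890) was at 4104, 4110, 3704 and 1772 CPM in WT and 520.9, 493.8 and 551.7 CPM in *glk* and fell 6.55-fold (FDR 7.65e-05). *LHCA5*, a minor member, was at 85.4, 94.9, 80.4 and 58.9 CPM in WT and 62.9, 70.4 and 69.1 CPM in *glk*, with ranges that overlapped (FDR 0.492). All 12 nuclear genes of the photosystem I core that were listed were downregulated, with a median of −2.15 and a range from −2.71 to −1.64. Against WT replicate 4 alone, all 12 had negative fold changes as well (median −1.34), and 4 of them, *PSAE1*, *PSAE2*, *PSAG* and *PSAH2*, passed against both kinds of WT library. *PSAE2* (AT2G20260), for a subunit on the stromal side of the complex where ferredoxin docks, was the steadiest of these across WT libraries. It was at 259.5, 259.2, 247.2 and 276.3 CPM in WT and at 39.7, 37.7 and 42.3 CPM in *glk*, or 6.53-fold lower in the mutant (FDR 2.24e-05).

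In photosystem II, 9 of 11 nuclear core genes were downregulated (median log2 fold change −1.65, and −0.99 against WT replicate 4 alone). The oxygen-evolving subunit gene *PSBQ2* (AT4G05180) was at 1966, 1795, 1657 and 1431 CPM in WT and at 223.3, 223.8 and 270.3 CPM in *glk* and fell 7.16-fold (FDR 4.32e-06). *PSBTN*, for a small subunit, was the other member that passed against both kinds of WT library, with a log2 fold change of −2.41. The oxygen-evolving subunit gene *PSBO1* was at 4288, 4156, 4085 and 2206 CPM in WT and 1087, 1058 and 1194 CPM in *glk* and fell 3.31-fold (FDR 0.00101). The remaining members were *PSBR*, at −0.81 (FDR 0.0542), and *PSBS*, which is needed for the harmless dissipation of excess light. *PSBS* was at 695.8, 580.1, 538.7 and 288.9 CPM in WT and at 368.0, 442.0 and 408.2 CPM in *glk*, between the 2 kinds of WT library (FDR 0.452).

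Changes were less uniform further along the electron transport chain. Of 13 genes of the cytochrome complex, its mobile carriers, cyclic electron flow and the ATP synthase, 7 were downregulated and 1 was upregulated, and the median was −0.85, against −0.41 with WT replicate 4 alone. Plastocyanin carries electrons to photosystem I, and both of its genes fell. *PETE1* (AT1G76100) was at 106.8, 97.2, 122.6 and 60.0 CPM in WT and 14.4, 13.5 and 15.8 CPM in *glk* (6.64-fold, FDR 3.11e-05), and *PETE2*, the more abundant form, fell 3.31-fold (FDR 0.00180). *ATPC1*, *ATPD*, *PETC*, *FD2* and *PGRL1A* were also downregulated, by 1.31, 1.79, 1.00, 1.84 and 0.85 on the log2 scale, respectively. *PGRL1B*, a close relative of *PGRL1A* in cyclic electron flow, moved the other way, from 11.8, 11.6, 13.8 and 14.6 CPM to 19.9, 20.2 and 22.1 CPM (1.60-fold, FDR 0.00695).

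Genes of chlorophyll synthesis were downregulated at early and late steps, though not throughout. Of 31 members, 30 passed the filter on low counts and 18 were downregulated, none was upregulated, and the median was −1.11. Against WT replicate 4 alone the median was −0.46. The 18 downregulated genes became 5 in a fit with the label set as a term, which also compares *glk* with WT replicate 4. Without *glk* replicate 1, 2 or 3 they numbered 9, 6 and 7, respectively. The first committed enzyme of the pathway is encoded by *HEMA1* (AT1G58290), which was at 530.8, 536.1, 529.5 and 123.4 CPM in WT and at 90.2, 92.8 and 104.6 CPM in *glk*. Its fall of 4.48-fold (FDR 0.00395) shrank to a log2 fold change of −0.36 against WT replicate 4 alone. Such a gap between the kinds of WT library was also present for *CAO*, which makes chlorophyll b, for *CHLP*, which makes the phytol tail, and for *CHLH*, a subunit of magnesium chelatase. *CHLH* was at 3253, 2901, 2690 and 713.3 CPM in WT and 685.0, 619.0 and 746.9 CPM in *glk* and did not pass (log2 fold change −1.81, FDR 0.0135). Protochlorophyllide oxidoreductase is the light-dependent enzyme late in the pathway, and its 3 genes were downregulated. *PORB* (AT4G27440), which differed little between the kinds of WT library, was at 454.8, 492.2, 605.6 and 599.5 CPM in WT and 87.3, 65.8 and 86.9 CPM in *glk* and fell 6.73-fold (FDR 1.67e-05). *PORA* (AT5G54190), the form known from etiolated seedlings, was at 35.9, 35.3, 48.4 and 19.7 CPM in WT and at 0.30, 0.431 and 1.24 CPM in *glk*. Its change of −5.72 on the log2 scale, with a standard error of 0.48 (FDR 1.08e-05), was the largest of the list. *PORC* was at 169.1, 145.8, 146.8 and 90.7 CPM in WT and at 51.2, 51.4 and 65.5 CPM in *glk* and fell 2.46-fold (FDR 0.00242). *PORA*, *PORB* and *HEME1*, which encodes a decarboxylase of the shared porphyrin branch (3.41-fold lower, FDR 4.18e-05), were the 3 members that passed against both kinds of WT library. *PPO2*, *HEMD* and *FLU* had log2 fold changes of −0.05, −0.19 and −0.26 and did not pass. *CHLG* did not pass either.

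**Figure D3:**
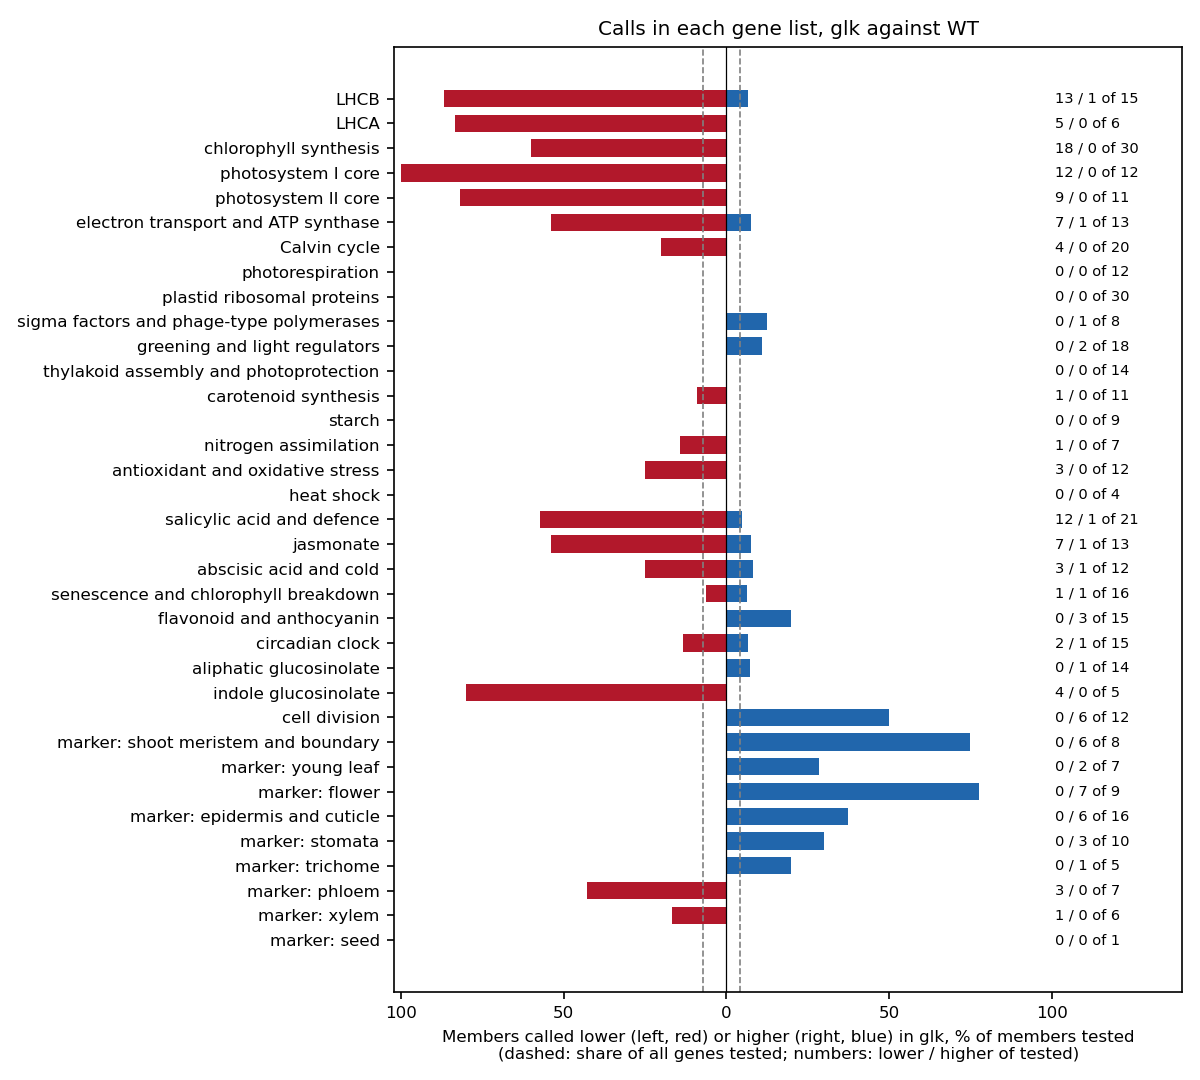
Share of the tested members of each gene list called lower (red, to the left) or higher (blue, to the right) in *glk*, in percent, with dashed lines at the shares over all genes tested (7.18% lower and 4.18% higher) and the counts at the right. The antenna, photosystem, chlorophyll, defence, jasmonate and indole glucosinolate lists lean to the left, and the cell division, meristem and flower lists to the right, the last 2 holding markers that passed the filter on low counts only through mutant libraries.

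For genes of carbon fixation the outcome depended on the kind of WT library. Of 20 Calvin cycle genes, 4 were downregulated (*RBCS1B*, *GAPA2*, *PGK1* and *HCEF1*, by 1.35, 1.44, 1.41 and 1.04 on the log2 scale). All 20 had negative fold changes against all WT libraries (median −1.05), but the median was 0.13 against WT replicate 4 alone, where no member passed. The gene of Rubisco activase, *RCA* (AT2G39730), was at 4732, 4751, 4103 and 733.9 CPM in WT and at 1637, 1624 and 1579 CPM in *glk*, below the first-set WT libraries and above WT replicate 4 (FDR 0.103). None of 12 photorespiration genes was called, with a median of −0.57 that became 0.61 against WT replicate 4 alone. The 30 nuclear genes of plastid ribosomal proteins all had small negative fold changes, from −0.91 to −0.05 with a median of −0.50, and none was called. That median was −0.11 against WT replicate 4 alone. In the other mutants, fitted with the same WT controls, the medians of the ribosomal list were −2.36 in *Ateaf1-1* and −2.32 in *Atepl1-2*, while those of the *LHCB* list were −1.34 and −1.67. These differences between the mutants were not tested.

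**Figure D4:**
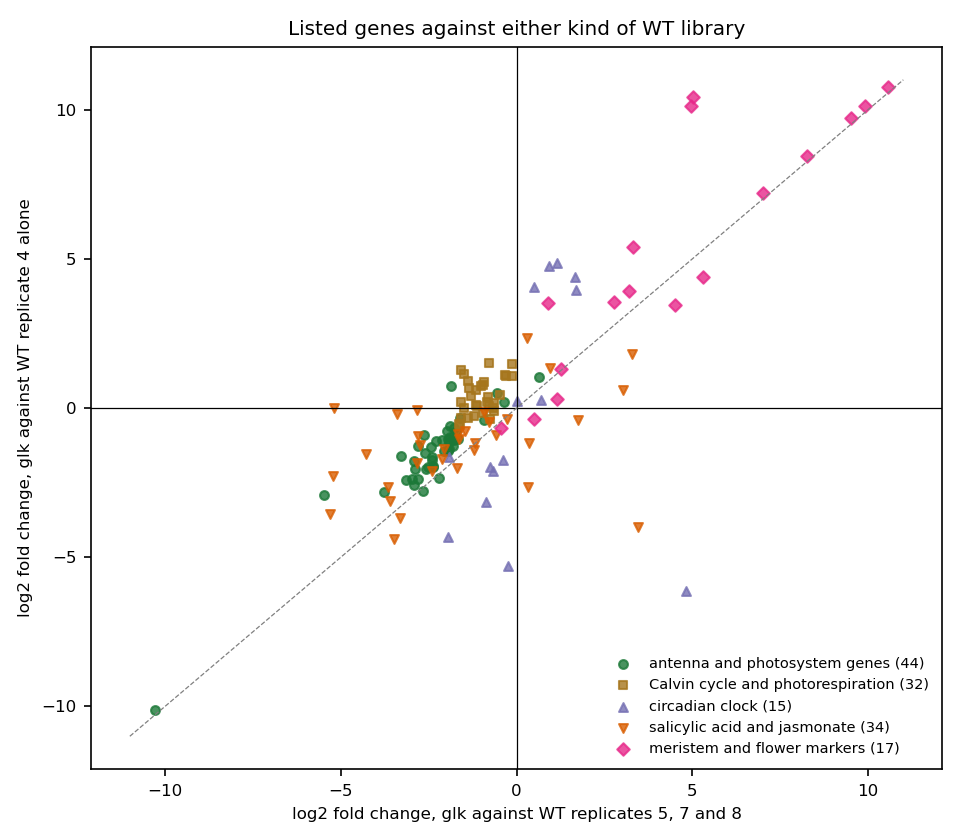
Log2 fold change of listed genes in *glk* against WT replicates 5, 7 and 8 (horizontal) and against WT replicate 4 alone (vertical), with the dashed line marking equal values. Antenna and photosystem genes lie mostly in the lower left, Calvin cycle and photorespiration genes lie left of 0 but on both sides of 0 vertically, clock genes lie far from the dashed line and most meristem and flower markers lie at the upper right.

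Regulators of chloroplast development were examined next. Of 18 regulators of greening and light responses, none was downregulated and 2 (11.1%, against 4.18% of all genes) were upregulated, the related GATA factors *GNC* and *CGA1*, which promote chloroplast formation. *GNC* (AT5G56860) was at 8.43, 4.95, 4.45 and 7.44 CPM in WT and at 24.4, 27.5 and 26.7 CPM in *glk* (4.14-fold higher, FDR 3.38e-05) and passed against both kinds of WT library. *CGA1* (AT4G26150) was at 0.733, 0.544, 0.494 and 0.531 CPM in WT and at 2.72, 3.85 and 1.77 CPM in *glk* (4.84-fold higher, FDR 2.66e-04). *HY5*, *PIF1*, *PIF3* and *PHYB* had log2 fold changes of 0.61, 0.47, −0.07 and −0.27 and did not pass. Among 8 nuclear genes of plastid sigma factors and phage-type polymerases, only *SCA3*, for a phage-type RNA polymerase of plastids, changed (2.34-fold higher, FDR 0.00791). This was 12.5% of the list, against 4.18% of all genes. None of the 14 genes of thylakoid assembly and photoprotection was called, none of the 9 starch genes was, and the 1 call among 11 carotenoid genes was *PSY*, for the first enzyme of the pathway (2.92-fold lower, FDR 4.44e-04). That call was 9.09% of the carotenoid list, near the 7.18% of all genes. Of 112 plastid-encoded genes tested, 8 were downregulated, a share close to the 7.18% of all genes, and none was upregulated, with a median of −0.10, and none of them passed against both kinds of WT library. The mitochondrial genome had 5 downregulated genes of 113, a share below the 7.18% of all genes, and none upregulated (median −0.74, and 0.03 against WT replicate 4 alone).

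Many defence genes were downregulated in *glk*. Of 21 genes of salicylic acid and defence, 12 were downregulated and 1 was upregulated, with a median log2 fold change of −1.51, and of −1.36 against WT replicate 4 alone. The transcription factor genes *SARD1* and *CBP60G* control salicylic acid synthesis. *SARD1* (AT1G73805) was at 15.6, 25.4, 6.73 and 20.6 CPM in WT and at 1.55, 2.1 and 1.14 CPM in *glk* (10.7-fold lower, FDR 5.92e-05). *CBP60G* (AT5G26920) was at 61.0, 77.0, 39.5 and 29.5 CPM in WT and at 4.92, 6.36 and 2.91 CPM in *glk* (10.9-fold lower, FDR 3.67e-05). The synthesis gene *ICS1* fell 3.78-fold (FDR 1.46e-04), and the signalling genes *EDS1*, *PAD4* and *SAG101* fell 2.83-, 2.48- and 2.38-fold. *WRKY53*, a regulator on the senescence list, went from 15.5, 23.8, 9.51 and 13.8 CPM to 0.877, 0.728 and 0.777 CPM (19.6-fold lower, FDR 2.89e-05). Of the 16 genes on the senescence list it was the only one downregulated, and 1 was upregulated. These shares were 6.25% each, near the 7.18% and 4.18% of all genes, and the median of that list was −0.06. The exception on the defence list was *PBS3*, an enzyme of the same synthesis route, which rose 2.05-fold (FDR 0.00514). The end-point marker *PR1* was low and scattered in both genotypes, at 0 to 2.41 CPM in WT and 0.364 to 3.23 CPM in *glk* (FDR 0.598). In *Ateaf1-1* and *Atepl1-2*, with the same WT controls, the medians of this list were 2.76 and 3.29.

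Jasmonate genes differed more from the first-set WT libraries than from WT replicate 4. Of 13 members, 7 were downregulated and *VSP1* was upregulated. The median was −2.48 against all WT libraries and −0.39 against WT replicate 4 alone. *JAZ1* (AT1G19180), an early-response repressor of jasmonate signalling, was at 100.9, 98.2, 75.3 and 27.0 CPM in WT and at 2.82, 1.75 and 2.33 CPM in *glk* (32.6-fold lower, FDR 1.67e-05) and passed against both kinds of WT library. So did *AOC2*, a synthesis gene, at 52.4, 61.4, 85.5 and 50.2 CPM in WT and 15.4, 16.3 and 13.9 CPM in *glk*. The synthesis gene *OPR3* and the regulator *MYC2* were called against all WT libraries (15.4-fold and 5.76-fold lower), with WT replicate 4 at 28.5 and 57.3 CPM, much closer to *glk* (8.30 to 11.1 and 26.5 to 33.8 CPM) than the other WT libraries were (130.6 to 244.4 and 173.6 to 240.9 CPM). *WRKY40*, on the abscisic acid and cold list, was at 169.3, 193.1, 77.4 and 54.2 CPM in WT and 1.85, 2.43 and 3.40 CPM in *glk* (48.2-fold lower, FDR 7.72e-05), and the zinc finger gene *ZAT10*, on the oxidative stress list, was at 238.9, 207.3, 79.9 and 50.0 CPM in WT and 5.56, 6.90 and 6.24 CPM in *glk* (23.1-fold lower, FDR 2.93e-04). Both passed against both kinds of WT library. Of the 12 tested genes on the oxidative stress list, 3 were downregulated (25%, against 7.18% of all genes) and none was upregulated, with a median of −0.15.

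Of the remaining stress lists, the indole glucosinolates, sulfur-containing defence compounds made from tryptophan, had 4 downregulated genes of 5 (median −2.0). Against WT replicate 4 alone the median was −0.93 and 1 of the 5, *MYB51*, passed. *MYB51*, which activates their synthesis, was at 13.7, 13.2, 8.27 and 15.5 CPM in WT and at 2.31, 2.43 and 1.34 CPM in *glk* (6.27-fold lower, FDR 6.83e-05), and the enzyme genes *CYP79B2*, *CYP79B3* and *CYP83B1* fell 5.75-, 4.00- and 3.21-fold. Of 14 genes of the aliphatic branch, made from methionine, only the regulator *MYB29* was called (3.36-fold higher, FDR 0.00247). This was 7.14% of the list, against 4.18% of all genes. In the flavonoid list, 3 of 15 tested genes were upregulated (20%, against 4.18% of all genes) and none was downregulated. The median was 1.18, and 3.68 against WT replicate 4 alone. With only the WT and *glk* libraries in the fit, 8 flavonoid genes passed the filter on low counts. None of these was called, and their median was 0.76. *F3H* was at 4.28, 3.26, 4.38 and 0.594 CPM in WT and 12.6, 10.0 and 15.3 CPM in *glk* (4.15-fold higher, FDR 0.00463), and *FLS1*, which makes flavonols, rose 4.29-fold (FDR 0.00371). *CHS*, for the first enzyme of the pathway, was at 42.0, 22.3, 30.3 and 1.31 CPM in WT and 22.6, 24.0 and 31.5 CPM in *glk* and did not pass (FDR 0.909). On the abscisic acid and cold list, 3 of 12 were downregulated, *WRKY40*, the synthesis gene *NCED3* (2.50-fold lower) and *COR47* (4.04-fold lower), while *HAB1*, a phosphatase that represses abscisic acid signalling, rose 2.41-fold. The shares were 25% lower and 8.33% higher, against 7.18% and 4.18% of all genes. None of the 4 tested heat shock genes of 8 listed was called.

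The circadian clock list separated WT replicate 4 from all 6 other libraries. The evening gene *TOC1* was at 15.1, 17.8, 16.5 and 79.4 CPM in WT and at 9.23, 8.22 and 9.32 CPM in *glk*, and the morning gene *CCA1* was at 28.1, 27.0, 20.4 and 1.75 CPM in WT and at 52.1, 47.7 and 42.3 CPM in *glk*. Neither passed (FDR 0.0274 and 0.143). *FKF1*, a light sensor of the flowering pathway with an afternoon peak, was at 1.1, 1.2, 1.98 and 47.1 CPM in WT and 1.82, 0.539 and 1.21 CPM in *glk*. For all 3 genes, *glk* lay on the side of the first-set WT libraries away from WT replicate 4 or among them. Of the 15 members, *LUX* and *CHE* were downregulated (13.3%, against 7.18% of all genes) and *PRR9* was upregulated (6.67%, against 4.18%). *LUX*, a part of the evening complex, was at 6.05, 6.80, 7.96 and 36.0 CPM in WT and 1.96, 1.91 and 1.51 CPM in *glk* (8.00-fold lower, FDR 0.00568). *PRR9*, a morning repressor, was at 15.2, 10.9, 10.8 and 2.53 CPM in WT and 41.3, 36.4 and 40.8 CPM in *glk* (4.04-fold higher, FDR 0.00521). The part of this difference among WT libraries in the other results was not tested.

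Cell division genes were higher in *glk*. Of 12 members, 6 were upregulated (50%, against 4.18% of all genes). All 12 had every *glk* library above all 4 WT libraries, as 3939 of the 20733 genes tested did (median log2 fold change 1.05). The upregulated members numbered 2, 3 and 2 without *glk* replicate 1, 2 or 3, respectively, 2 with limma-voom and 8 with DESeq2. The mitotic cyclin gene *CYCB1;1* was at 0.489, 0.544, 0.617 and 0.562 CPM in WT and at 3.07, 2.34 and 3.30 CPM in *glk* (5.23-fold higher, FDR 0.00191), and *KNOLLE*, needed to build the cell plate, was at 2.38, 3.70, 3.03 and 3.44 CPM in WT and 8.84, 6.49 and 11.2 CPM in *glk* (2.81-fold higher, FDR 0.00780). None of the 12 passed against WT replicate 4 alone, where the median was 0.73. The summed level of the list was 58.1 to 62.2 CPM in WT and 93.5 to 117.0 CPM in *glk*. Of 7 markers of young leaves, 2 were upregulated, *ANT* and *GRF5*, regulators of leaf growth, and the median of the list was 1.39, and 0.46 against WT replicate 4 alone. *ANT* (AT4G37750) was at 2.81, 1.80, 2.59 and 2.31 CPM in WT and 12.8, 8.62 and 10.0 CPM in *glk* (4.42-fold higher, FDR 1.67e-05).

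Of 12 markers of the shoot meristem and organ boundaries, 8 passed the filter on low counts and 6 were upregulated, but a member that passed only because a mutant group was high had to differ from WT. Of the 12, 6 had no counts in any WT library and none was at 0 in every *glk* library. *STM* (AT1G62360), the homeobox gene that maintains the shoot meristem, had no counts in WT and was at 4.25, 5.44 and 5.29 CPM in *glk*, at least 31.9-fold higher (FDR 4.32e-06). Its relative *KNAT1* (AT4G08150) also had none in WT and was at 2.47, 3.91 and 3.16 CPM in *glk*, at least 20.3-fold higher (FDR 1.37e-04). These bounds divide the mean *glk* level by the mean level of 3 counts in the WT libraries. They leave out the spread among the *glk* libraries. *STM* and *KNAT1* were also detected in *Ateaf1-1* (1.76 to 1.99 and 0.371 to 1.53 CPM) and in *Atepl1-2* (2.01 to 3.78 and 0.388 to 1.16 CPM). *CLV1*, a receptor gene of the meristem that is not confined to it, was at 52.7, 46.4, 35.6 and 51.5 CPM in WT and 32.3, 35.9 and 29.8 CPM in *glk* (FDR 0.050). *CLV1* held most of the summed level of the list, which overlapped between genotypes, 37.9 to 56.1 CPM in WT and 47.1 to 54.4 CPM in *glk*.

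Flower markers were higher in *glk* than in any WT library. Of 11 members, 9 passed the filter on low counts, some of them only through mutant libraries, and 7 were upregulated. The summed level of the list was 25.3 to 37.0 CPM in the first-set WT libraries, 53.5 CPM in WT replicate 4 and 78.9 to 101.3 CPM in *glk*. In every library most of this sum came from *SOC1*, which is described below and did not pass. *AP3* (AT3G54340), which specifies petals and stamens, had no counts in WT and was at 1.89, 2.43 and 2.82 CPM in *glk*, at least 15.2-fold higher (FDR 0.00147). Its partner *PI* (AT5G20240) was at least 25.0-fold higher, at 0.183, 0, 0.185 and 0 CPM in WT and 2.45, 3.93 and 5.37 CPM in *glk*. *SEP3*, which acts with them in flower organ identity, was at 0.367, 0.435, 0.432 and 0.0937 CPM in WT and 2.47, 4.74 and 5.05 CPM in *glk* (13-fold higher, FDR 3.87e-04). In the other mutants *SEP3* stayed low, at 0.109 to 0.565 CPM in *Ateaf1-1* and 0.108 to 0.193 CPM in *Atepl1-2*. *SOC1*, which promotes flowering and is also expressed in leaves, was at 31.6, 31.0, 20 and 50.0 CPM in WT and at 56.5, 62.4 and 65.3 CPM in *glk* and did not pass (FDR 0.0270). The labels give rosette leaves as the tissue, and the part of meristem or flower RNA in the other results was not tested.

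**Figure D5:**
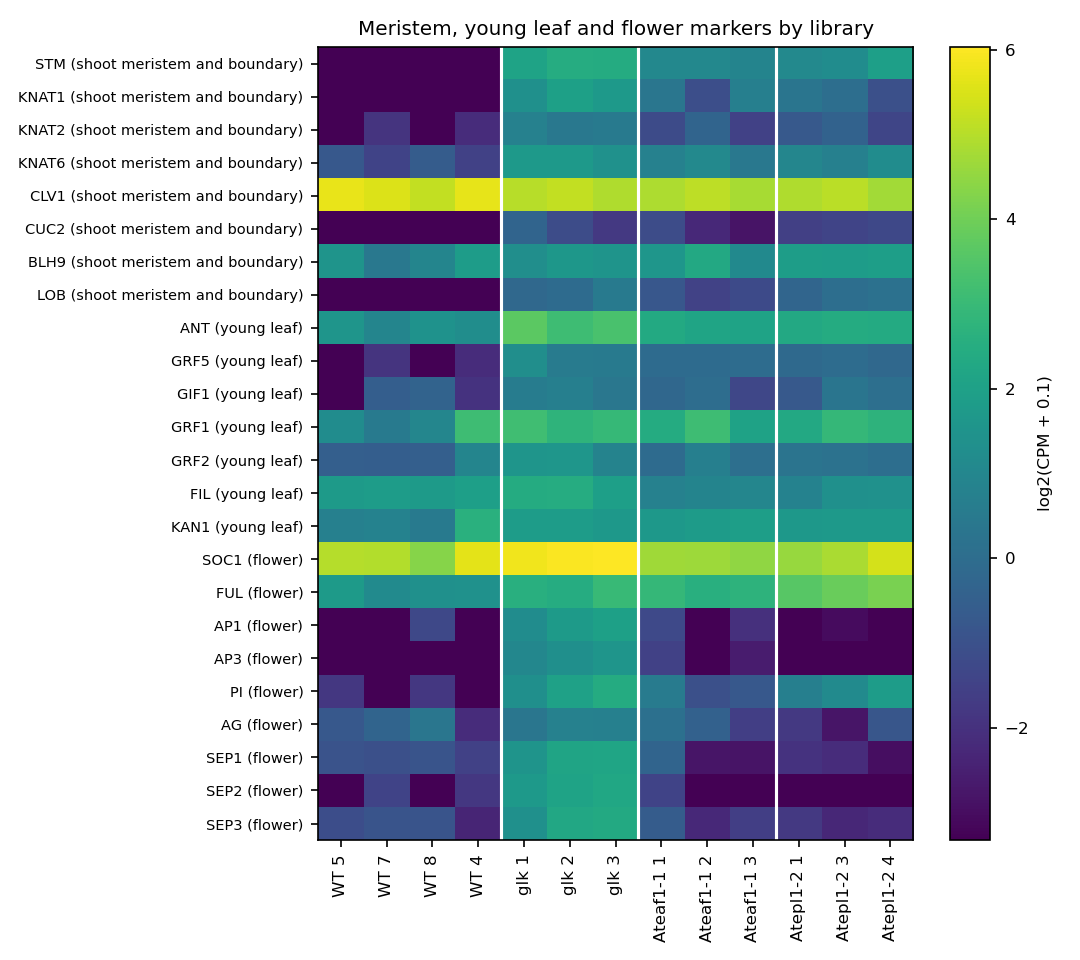
Level of the tested meristem and boundary, young leaf and flower markers in each of the 13 libraries as log2(CPM + 0.1), in colour from dark (low) to yellow (high). *STM* and *KNAT1* are dark in the 4 WT libraries and lighter in *glk*, *Ateaf1-1* and *Atepl1-2*, while *AP3*, *SEP2* and *SEP3* are lightest in the 3 *glk* libraries.

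Among 16 markers of epidermis and cuticle, 6 were upregulated, with a median of 0.33. *DCR* (AT5G23940), an acyltransferase gene of cutin synthesis, was at 0.978, 0.762, 0.803 and 0.375 CPM in WT and at 37.3, 26.2 and 35.8 CPM in *glk* (47.3-fold higher, FDR 7.98e-07) and passed against both kinds of WT library. *DCR* was likewise at 12.3 to 21.1 CPM in *Ateaf1-1* and 11.2 to 21.0 CPM in *Atepl1-2*. *CYP77A6*, for another cutin enzyme, rose 5.27-fold (FDR 1.69e-04). *ATML1*, which defines epidermal identity, was at 36.0 to 38.9 CPM in WT and 39.2 to 44.2 CPM in *glk* (FDR 0.541). In the stomatal list, the early lineage genes *SPCH*, *TMM* and *EPF2* were upregulated, 3 of 10, but none of the 10 passed against WT replicate 4 alone. *TMM*, a receptor-like protein, went from 1.34, 1.47, 2.47 and 3.22 CPM to 10.9, 6.33 and 8.84 CPM (4.02-fold higher, FDR 3.72e-04), and the guard cell gene *KAT1* had a log2 fold change of −0.91 and did not pass. The median of 7 phloem markers was −0.96, and −0.37 against WT replicate 4 alone, and 3 of them fell, with *SUC2*, the sucrose loader, 1.94-fold lower (FDR 0.00403), and 1 of 6 xylem markers fell, *XCP1*. These were 42.9% and 16.7% of the lists, against 7.18% of all genes.

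The 12 largest falls and 12 largest rises were taken among called genes with at least 10 counts in every library of the higher group and no overlap between the groups. Apart from AT1G14250, the falls were of genes with their lowest WT level in replicate 4, though in *LHCB1.4* by little. *PHI-1* was at 181.5, 229.1, 166.2 and 13.2 CPM in WT and at 0.138, 0.108 and 0.170 CPM in *glk*, and *JAZ7*, a jasmonate repressor gene, at 39.2, 51.2, 34.5 and 1.19 CPM in WT and 0.0231, 0.0269 and 0.0486 CPM in *glk*. *DDF1*, *CYP94B3* and *XTH18* showed the same order. Of these 12, *LHCB1.4*, *ACS8* and AT1G14250 passed against both kinds of WT library. *ACS8*, for an enzyme of ethylene synthesis, was at 19.4, 12.7, 11.7 and 2.12 CPM in WT and 0.0231, 0.108 and 0.0243 CPM in *glk* (log2 fold change −7.75, standard error 0.90, FDR 7.84e-05). The 12 largest rises were all of genes with no counts in any WT library. The largest was AT5G22430, at 10.2, 15.4 and 19.6 CPM in *glk*, at least 96.4-fold higher. *ATA27*, *ACOS5*, *MS2* and *TSM1*, which are known from anthers, where *ACOS5* and *MS2* serve the making of the pollen wall, were among them. By the mean of the *glk* libraries, *ATA27* was at least 68.8-fold, *MS2* at least 17.9-fold and *TSM1* at least 18.6-fold higher. These bounds leave out the spread among the *glk* libraries. *ATA27* varied among the *glk* libraries, at 2.17, 17.2 and 12.9 CPM. In *Ateaf1-1* and *Atepl1-2* it was at 0 except in 1 *Ateaf1-1* library (0.0209 CPM). *STM*, *KNAT1*, AT5G55720 and AT1G62500 were detected in every library of those mutants too, the last at 1.59 to 2.88 CPM in *Ateaf1-1* and 1.67 to 2.98 CPM in *Atepl1-2*. All 12 passed the filter on low counts only through mutant libraries, so that they had to differ from WT.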

How the data were processed

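RNA was isolated from pooled leaves, depleted of ribosomal RNA, made into stranded libraries and sequenced on an Illumina instrument. The authors trimmed reads with BBDuk2 and quantified Araport11 transcripts with Salmon (version 0.13.1 per the labels, build TAIR10) with sequence and GC bias correction. The deposited tables hold estimated counts per gene as whole numbers and TPM values made by the authors. Nothing says whether the pooled plants of different replicates were grown separately, so p-values measure only the spread between these samples.

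Estimated counts of 13 libraries (4 WT, 3 *glk*, 3 *Ateaf1-1* and 3 *Atepl1-2* of the second set) were tested with edgeR 4.0.16 in R 4.3.3, using TMM normalization, the default filter on low counts by group and the quasi-likelihood test, with FDR adjusted over all 20733 genes left of 32865. The same script was tested on simulated data. Where every WT library had 3 counts or fewer, a bound is given. It is the mean *glk* level divided by the mean level of 3 counts in the WT libraries. Alternatives were limma 3.58.1 on TPM and with voom, DESeq2 1.42.0, other filters, other scaling, the label set as a term and each replicate left out. Organelle genes were kept, and leaving them out is among the alternatives. Named genes are the mutated genes, members of gene lists and the 12 largest falls and rises among called genes with at least 10 counts in every library of the higher group and no overlap. The comparison, lists and tests were chosen with earlier results of these data known. Gene positions and promoters are from RefSeq TAIR10.1, matched by locus identifier for 31742 genes. ChIP-seq files, which hold no *glk* sample, were not used. Bounds do not cover the spread among the *glk* libraries.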

Additional observations from a re-analysis of the deposited data

Results flagged for a closer look

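Among the 4 WT libraries, 135 sums and gene levels were screened for a single library far from the other 3, measured by its gap to the nearest one divided by the whole range, above the critical value of Dixon's test. Chance gives such a gap in about 1 of 20 groups. The screen found 16, and 14 of them were at WT replicate 4. The summed levels that set this library apart were 40840 CPM for *LHCB* genes (64140 to 68590 CPM in the others), 3974 CPM for chlorophyll synthesis (9199 to 9729 CPM), 3799 CPM for electron transport and ATP synthase (7088 to 7508 CPM), 490.3 CPM for the circadian clock (279.7 to 299.4 CPM), 22.77 CPM for young leaf markers (9.685 to 10.57 CPM) and 0.06248 CPM for root markers (0 in the others). Single genes that set it apart were *LHCB2.3* at 251.6 CPM, *HEMA1* at 123.4 CPM, *CAO* at 84.1 CPM, *CHLP* at 440.5 CPM and *RCA* at 733.9 CPM, all below the other WT libraries. The clock genes *TOC1* at 79.35 CPM, *FKF1* at 47.08 CPM and *LUX* at 35.99 CPM were above them. The other 2 gaps were a summed level of seed markers of 2.013 CPM in WT replicate 7, against at most 0.1852 CPM in the other WT libraries, and an *AP1* level of 0.3087 CPM in WT replicate 8, against 0.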

How the results depend on the processing

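The number of downregulated genes, 1488 in the report, was 2278 with DESeq2, 793 when the label set was a term, 406 with WT replicate 4 as the only WT library, 510, 719 and 491 with limma on log2(TPM + 1), log2(TPM + 0.1) and log2(TPM + 1) of genes with a mean TPM of at least 1, 2355 at an FDR under 0.05 and 291 in each of 3 fits (all WT libraries, without WT replicate 4 and with it alone), a rule chosen after seeing the data. The 867 upregulated genes became 360 when the label set was a term, 168 with WT replicate 4 only, 1923 on log2(TPM + 0.1), 1878 at an FDR under 0.05 and 103 in each of the 3 fits. Leaving out 1 library at a time gave 722 to 2433 downregulated and 368 to 1741 upregulated genes, both highest without WT replicate 4. The remaining alternatives stayed within 1.5 times, and causes of the shifts were not tested. Over 85 followed genes that were called, 1517 alternative values kept direction and call, 251 kept the direction only and none reversed. These totals include settings that reuse the main fold change and so could not reverse a gene. They are the FDR under 0.05, no required direction against WT replicate 4, and full separation of the libraries, where all 85 kept their call. Each call already required the same direction against WT replicate 4, so the fit with that library alone could hardly reverse a called gene. The fit with the label set as a term could hardly do so either, since only the WT libraries link the sets there. It too compares *glk* with WT replicate 4, and the *LHCB* median was −2.01 in it and −1.97 with that library alone. In this label-set fit, 52 kept their call and 33 kept the direction only. On the 3 TPM scales the median of all genes was itself 0.265, 0.487 and 0.355, so a positive value there at or near these medians is no reversal relative to other genes. Of followed genes that were not called, the log2 fold change was positive in *GLK2* (0.03418 when the label set was a term, 0.07798 with WT replicate 4 only, and 0.3156, 0.3572 and 0.3156 in the 3 TPM settings in the order above), in *LHCA5* (0.1518, 0.1959, 0.3567, 0.3677 and 0.3567 in the same order) and in *PSBS* (0.4467, 0.4907, 0.2247, 0.2264 and 0.2247). In the first 2 of these settings it turned positive in *LHCB4.3* (0.703 and 0.7477), *RBCS1A* (0.06558 and 0.1096) and *RCA* (1.092 and 1.137). *NIA1*, for nitrate reductase, turned to 0.2402 with voom, 3.809 and 3.853 in those 2 settings and 0.7189, 0.9021 and 0.7189 in the TPM settings. With 1 library left out, *CHS* ranged from −0.2706 to 0.5485 and *CAT2*, for catalase, from −0.1695 to 0.5734. No paired analysis was possible because the *glk* and WT libraries share fewer than 2 replicate numbers. Depth limits the low-count markers: 3 counts are 0.0937 to 0.185 CPM in the WT libraries.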
